A study of Drosophila melanogaster with 3 samples.

Results

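The 500 strongest binding summits of Sox14 in whole white prepupae of Drosophila melanogaster are described here. They were chosen by the authors' peak signal, as the 500 peaks of highest signal among the 9316 of the optimal list, the peaks the authors kept as reproducible, and they are set against the remaining 8816. The chromatin immunoprecipitation and sequencing (ChIP-seq) was done in a single group of 3 biological replicates with 1 library each. Every animal came from a transgenic fly line, labelled Sox14-GFP, that stably expresses Sox14 carrying GFP at its C terminus. The description names an antibody against GFP, while the antibody field of the labels names Sox14. Males and females were pooled and the age is given as unknown. The labels do not say what drives the tagged copy or whether the untagged gene was still present. A summit is an average over all tissues of the animal, and no tissue or cell type can be read from it. Read depth is unknown, because the lists hold no read counts.

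Sox14 belongs to the Sox family of transcription factors, which contact the minor groove of DNA through an HMG box and bend it, and which prefer A and T rich words such as AACAATG or AACAAAG. In flies the Sox14 gene is switched on by the moulting hormone ecdysone at the onset of metamorphosis, when larval tissues die or are remodelled and adult tissues grow, and the factor is known for its part in the pruning of dendrites in that period. The white prepupa is the stage at which this transition begins.

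The sequences at some of the strongest summits show the base composition and the Sox words described further on. The first 4 are the 2 highest promoter summits and the 2 highest summits outside promoters on 2L, 3L, 3R and X. The other 4 are the next highest windows there that hold AACAAAG, and the highest that holds AACAATG. Each window reaches 50 bp to either side of the summit, from the RefSeq Release 6 genome (build dm6), plus strand, 5′ to 3′. Capitals mark the Sox words AACAATG or AACAAAG or ACAATG on either strand, and a window without capitals holds none of these words.
CG14100, rank 2, chr3L:19590573-19590673: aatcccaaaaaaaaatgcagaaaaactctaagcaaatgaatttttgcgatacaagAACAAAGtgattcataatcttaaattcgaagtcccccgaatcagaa
cbt, rank 4, chr2L:481026-481126: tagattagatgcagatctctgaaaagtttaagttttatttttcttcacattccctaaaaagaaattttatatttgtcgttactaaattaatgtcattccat
Ugalt, rank 5, chrX:2703843-2703943: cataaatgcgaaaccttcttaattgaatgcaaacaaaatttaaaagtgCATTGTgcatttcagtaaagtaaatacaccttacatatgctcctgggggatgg
CG11050, rank 8, chr2L:6612666-6612766: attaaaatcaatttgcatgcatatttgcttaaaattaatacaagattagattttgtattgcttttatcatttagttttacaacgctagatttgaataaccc
CG3436, rank 49, chr2L:156039-156139: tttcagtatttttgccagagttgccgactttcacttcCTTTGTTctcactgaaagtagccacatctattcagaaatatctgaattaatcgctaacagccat
SLIRP2, rank 60, chr3R:8650901-8651001: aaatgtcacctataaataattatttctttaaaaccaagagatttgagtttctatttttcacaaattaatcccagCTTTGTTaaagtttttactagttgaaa
CG9837, rank 72, chr3R:8811632-8811732: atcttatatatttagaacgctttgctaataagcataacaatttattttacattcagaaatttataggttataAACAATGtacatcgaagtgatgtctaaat
CG1635, rank 82, chr3R:31588491-31588591: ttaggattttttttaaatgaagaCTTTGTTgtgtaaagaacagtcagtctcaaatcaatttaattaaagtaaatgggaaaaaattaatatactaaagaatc
The windows at cbt and CG11050 have a GC content of 24.8 and 23.8%, and those at CG14100, Ugalt and CG3436 have 31.7, 34.7 and 37.6%. SLIRP2, CG9837 and CG1635 stand at 23.8, 23.8 and 22.8%. All 8 lie below the median GC content of the windows flanking the 500 strongest summits, which was 43.6%. Against the median of all optimal windows, 34.7%, Ugalt was level and CG3436 above. The 4 windows chosen for a Sox word hold an A and T rich word by choice, so their GC content is partly set by that choice.

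The signal that chose the members ran from 3147 down to 594.8 on the scale of the authors' peak caller, with a median of 795, against a highest value of 594.7 and a median of 155 in the remaining optimal list. These values made the selection and are a description only. The boundary was not a gap. The last 5 inside, nearest to Pgant9, CG43867, CycG, out and Marf, had signals from 595.6 to 594.8. The first 5 outside, nearest to CG13082, AnxB10, Art4, Dyrk3 and CG18661, had signals from 594.7 to 593. The authors' −log10 q value was 4.26 at all 500 members and equally at 8698 of the remaining 8816 peaks, so it does not order the members.

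A summit is named by the protein-coding gene whose transcription start site (TSS) lies nearest, except in the gene lists, where a gene counts when a TSS of it lies within 1 kb, nearest or not. Neither shows that the gene is regulated from there. The 5 strongest sites stood at or near the top of every replicate. Sox14 ranked 2, 3 and 4 in replicates 1, 2 and 3. Which sequence of the locus the transgene carries is not given in the sources used here, and the part that any added copies of the Sox14 locus have in this signal was not tested, since no control library was analysed here. CG14100 ranked 1, 8 and 1, and the summit assigned to CG13323, an intergenic site, ranked 3, 1 and 6. That of cbt, a zinc finger factor of the Krüppel-like type, ranked 4, 4 and 2. It lay in an intron of another gene, ush, 1388 bp upstream of the cbt TSS. Ugalt, a transporter of UDP-galactose, ranked 5, 2 and 5. Each of these stayed within the first 8 of every replicate list of 30000 peaks.

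Across the 500, a summit within 100 bp was found in replicate 1 for 497, in replicate 2 for 500 and in replicate 3 for 499. The median rank of the members found was 250, 255.5 and 251 in replicates 1, 2 and 3, and the poorest was 3281, 2019 and 965. Of the 500 members, 347 (69.4%) were among the 500 strongest of every replicate and 478 (95.6%) among the 1000 strongest of every replicate. A single member was in no replicate's first 500, while 40 were in that of 1 replicate and 112 in that of 2. Spearman's correlation of the replicate ranks was 0.784 between replicates 1 and 3, 0.792 between replicates 2 and 3 and 0.555 between replicates 1 and 2, over the members found in both lists of a pair. These are descriptions across peaks, because the pooled signal that chose the members was built from the same 3 libraries.

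**Figure D1:**
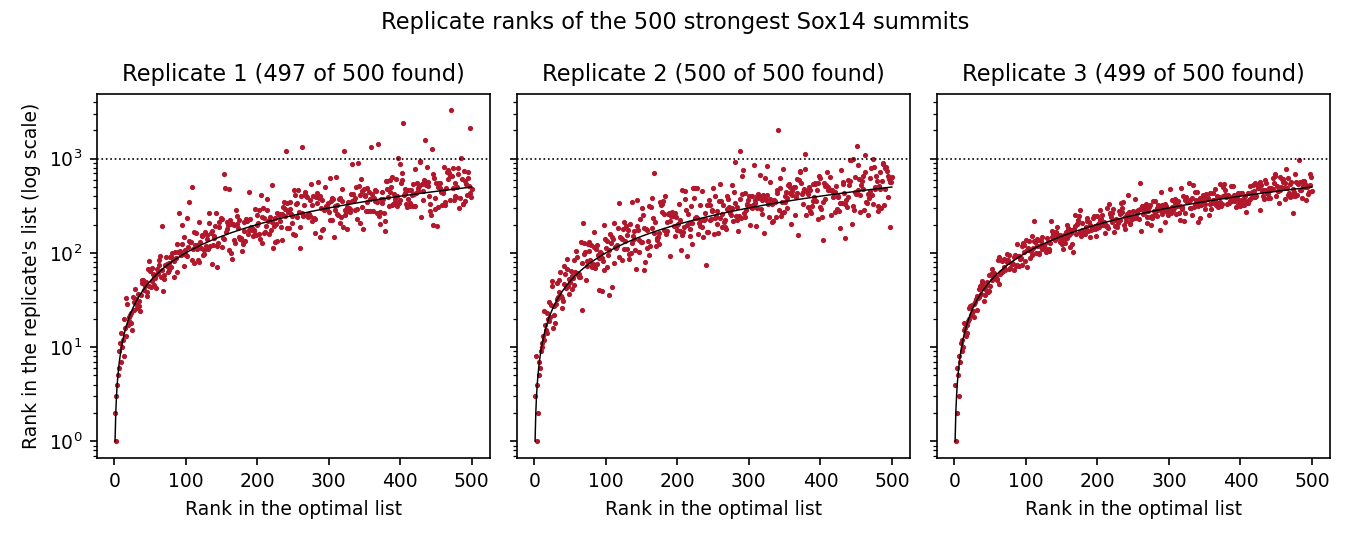
Rank of each of the 500 strongest summits in each replicate's own list (log scale) against its rank in the optimal list. Each point is 1 member found within 100 bp in that replicate, the black curve marks equal ranks and the dotted line rank 1000. Points follow the curve most closely in replicate 3, where the poorest rank is 965, and scatter furthest in replicate 1, where it is 3281.

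The members the replicates ranked least evenly were few. The promoter summit of Mcad, a medium-chain acyl-CoA dehydrogenase of fatty acid oxidation, ranked 3281 in replicate 1, 802 in replicate 2 and 566 in replicate 3. The intronic summit assigned to CG11362 lay inside another gene, dnr1, and ranked 2418, 136 and 322. That of CycG, a cyclin, ranked 2116, 186 and 522, and that of BNIP3, a mitophagy receptor, 1594, 144 and 588. In these 4, replicate 1 was the poorest. CG5902 was instead poorest in replicate 2, with ranks of 910, 2019 and 211. For the 4 members without a partner, a summit of that replicate lay outside the 100 bp limit. For CG43389 it lay 106 bp away in replicate 1 and ranked 112, for CG13896 118 bp away at rank 570, and for CG4586 229 bp away at rank 432. For wake it lay just beyond the limit in replicate 3 and ranked 419.

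The 500 strongest summits were more often at promoters than the remaining ones. Within 500 bp of an annotated TSS lay 280 of the 500 (56%, 95% Wilson interval 51.6 to 60.3%), against 3797 of 8816 (43.1%), an odds ratio of 1.68 (Fisher's exact test, two-sided, adjusted p = 1.26e-07 over 7 classes). Introns held 165 members (33%), against 39.5% of the remaining summits (exact adjusted p = 0.0094). Intergenic sequence held 44 (8.8%), against 14.7% (exact adjusted p = 4.82e-04). The classes add up to all summits, so a higher promoter share lowers the others. Among summits outside promoters, a comparison added after seeing the data, introns held 165 of 220 members (75%), against 3482 of 5019 (69.4%), and intergenic sequence 44 of 220 (20%), against 25.8%. Neither passed there (exact adjusted p = 0.254 each). With promoters counted, the intron share no longer passed when the promoter window was 250 bp (exact adjusted p = 0.883), when 1000 summits were taken (0.101) or without replicate 3 (0.0999).

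Exons away from promoters held 11 members in all, and none of their classes passed the test. No member lay in a coding exon, against 24 of the remaining summits (exact adjusted p = 0.931). The 3 summits in 5′ UTRs were assigned to Raf, Fbl6 and CG9003, and the 4 in 3′ UTRs to CG43389, NimA, CG7872 and Cals, with the NimA one lying in the 3′ UTR of Ance-3. The 4 in other exons all lay in long non-coding RNA genes. These were lncRNA:CR46035 at rank 12, lncRNA:CR44619 at ranks 29 and 408, and lncRNA:CR43334 at rank 432.

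**Figure D2:**
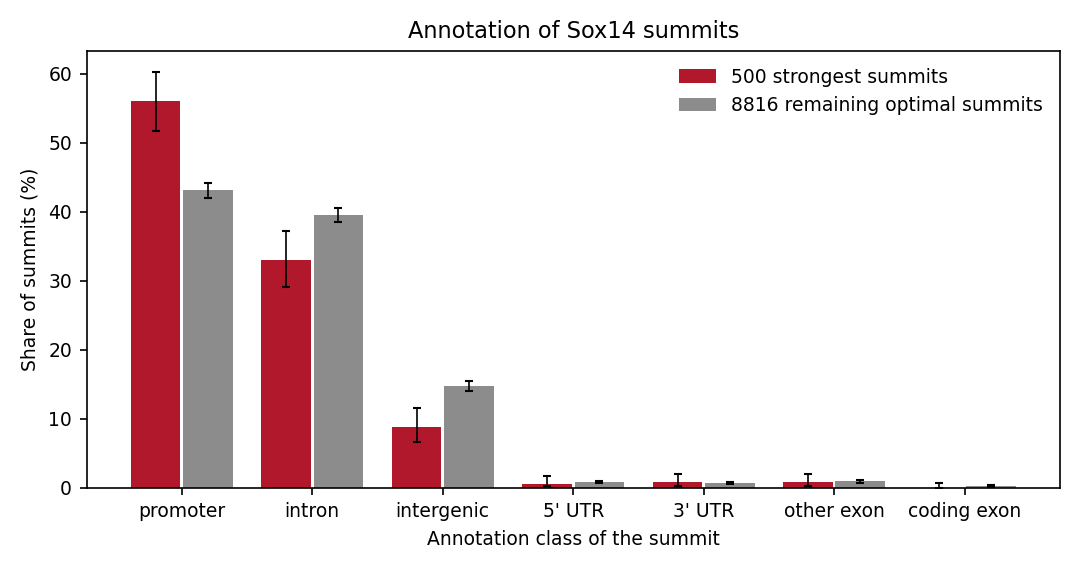
Share of summits in each annotation class (%), for the 500 strongest and the 8816 remaining optimal summits, with 95% Wilson intervals that cover the counting of summits only. The promoter bar is higher for the 500 strongest (56 against 43.1%), and the intron (33 against 39.5%) and intergenic bars (8.8 against 14.7%) are lower.

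By rank, with no test between ranks, the promoter share was 61% of the first 100, 57.3% of the next 150 and 53.2% of the last 250. Just beyond, in the 500 that follow, it was 46.6%, and in the last 2316 of the optimal list it was 40.2%. The median distance to the nearest TSS was 344 bp for the members and 814 bp for the remaining summits, and 238 bp for the first 100 members.

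The promoter summits of the strongest group sat farther upstream of the TSS. The median position of the 280 was 137 bp upstream (quartiles 218 and 44 bp upstream), against 58 bp upstream for the remaining 3797 promoter summits (quartiles 151 bp upstream and 19 bp downstream). Upstream of their nearest TSS lay 225 of 280 (80.4%), against 70.1% (odds ratio 1.75, Fisher's exact test, two-sided, adjusted p = 1.75e-04). Between 100 and 300 bp upstream lay 148 of 280 (52.9%), against 1056 of 3797 (27.8%), an odds ratio of 2.91 (exact adjusted p = 3.49e-17). Both tests belong to a family of 4 that was chosen after seeing the data. Examples among the first 50 members are Hsp27, which encodes a small heat shock protein (141 bp upstream), Sesn, the stress-responsive sestrin (236 bp), Trp1, a subunit of the translocon of the endoplasmic reticulum (137 bp), Shc, an adaptor of receptor tyrosine kinases (121 bp), and gish, a casein kinase of the membrane (152 bp).

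**Figure D3:**
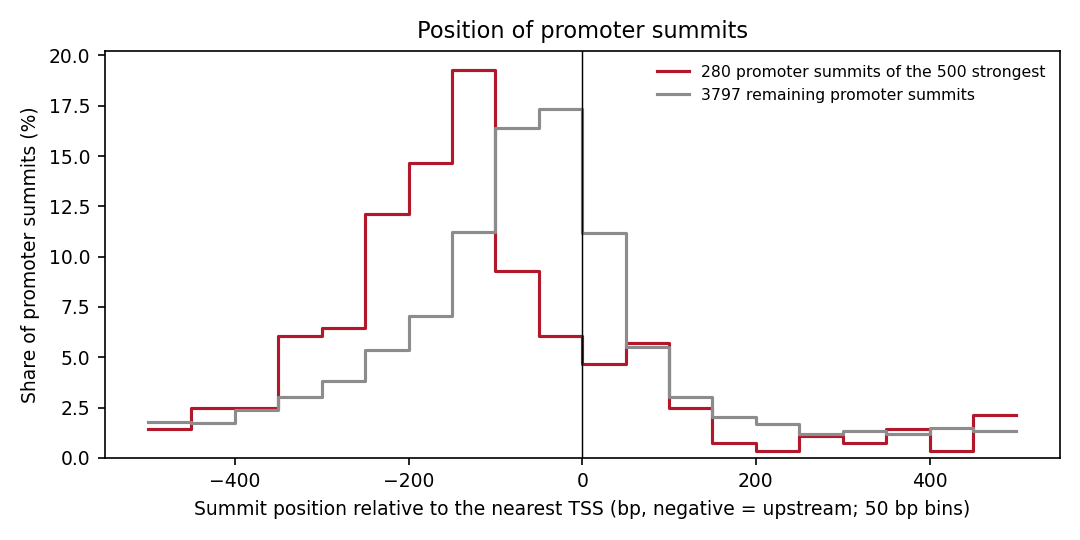
Position of promoter summits relative to their nearest TSS in bins of 50 bp (bp, negative values upstream), as a share of each group's promoter summits (%). The 280 of the strongest group are most frequent from 150 to 100 bp upstream (19.3%), and the remaining 3797 from 50 bp upstream to the TSS (17.4%).

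More of the strongest summits had protein-coding TSSs on both strands nearby. TSSs on both strands within 1 kb were found at 110 of 500 (22%), against 1407 of 8816 (16%), an odds ratio of 1.49 (Fisher's exact test, two-sided, adjusted p = 0.00119 over 2 tests). Without replicate 1 the shares were 19.4 and 16.1% and the difference did not pass (exact adjusted p = 0.0538). All summits entered this comparison, and the members were more often at promoters (56 against 43.1%). The part of the promoter share in this difference was not tested. At rank 11 the summit lay between CenG1A, a GTPase-activating protein (117 bp), and mRpS23, a mitochondrial ribosomal protein (375 bp). At rank 20 it lay between Art3, an arginine methyltransferase (127 bp), and mRpS10 (130 bp), and at rank 19 between Tcs5 (110 bp) and CHMP2B, of the ESCRT-III machinery (114 bp). At rank 9 it stood 86 bp from Chro, a chromodomain protein of interbands, and 191 bp from Ssl1, a subunit of the repair and transcription factor TFIIH. The summit of hpo, the kinase that gives the Hippo pathway its name, stood 70 bp from its TSS and 826 bp from that of CG15120, with a GC content of 54.5%, the highest of the first 50.

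Another optimal summit lay within 1 kb of 181 members (36.2%), against 32.3% of the remaining summits, a difference that did not pass (exact adjusted p = 0.0772). It passed within 5 kb (83.6 against 77%, exact adjusted p = 5.97e-04). It also passed over 1000 summits (37.6 against 31.9%, exact adjusted p = 3.49e-04), against remaining summits found in all 3 replicates (36.2 against 29.9%, 0.00353) and without replicate 1 (37.2 against 32.2%, 0.0478). Across the large chromosome arms the share of members ran from 17.2% on 2R (86 members) to 22.2% on 3R (111), with 21.2% on 2L, against 18.3, 23.8 and 17.9% of the remaining summits on 2R, 3R and 2L. No arm passed (lowest exact adjusted p = 0.385, for 2L), and at an unadjusted p under 0.05 no arm passed either. Chromosome 4 held 1 member, assigned to Cals.

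The sequence at the strongest summits was poorer in GC. The median GC content of the window of 50 bp to either side was 30.7% at the 500 strongest (quartiles 26.7 and 34.7%), against 35.6% at the remaining summits (quartiles 28.7 and 43.6%). In windows 1000 bp to the side it was 43.6% for the members and 42.6% for the remaining summits. At or under the median of all optimal windows, 34.7%, were 376 of 500 members (75.2%), against 4396 of 8816 (49.9%), an odds ratio of 3.05 (Fisher's exact test, two-sided, adjusted p = 4.46e-29, chosen after seeing the data). At promoters the shares were 74.3 and 36.1% (odds ratio 5.12, exact adjusted p = 2.41e-35). At promoter summits 100 to 300 bp upstream, where position was alike, they were 78.4 and 58.5% (exact unadjusted p = 2.32e-06). Inside and outside promoters the members had the same median of 30.7%, against 39.6% for the remaining promoter summits and 32.7% for the remaining summits elsewhere. The GC content of the 500 ran from 17.8 to 61.4%.

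**Figure D4:**
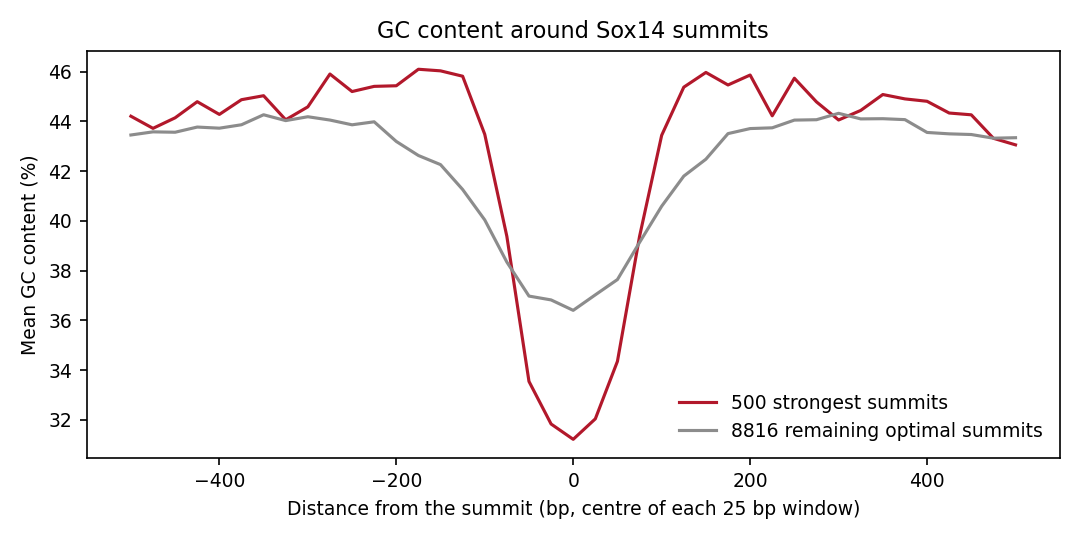
Mean GC content (%) in windows of 25 bp against the distance from the summit (bp), for the 500 strongest and the 8816 remaining optimal summits. At the summit the mean is 31.2% for the 500 strongest and 36.4% for the remaining summits, and 150 bp to the left it is 46% for the 500 strongest and 42.3% for the remaining summits, so the dip of the 500 strongest is deeper and narrower.

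The dip at the strongest summits was deep and narrow. In windows of 25 bp the mean GC content was 31.2% at the member summits, against 36.4% at the remaining summits (SD 11.5 and 14 over windows). At 150 bp to the left on the plus strand it was 46% around the members and 42.3% around the remaining summits, and at 150 bp to the right 46 and 42.5%. The members thus combined the lower centre with the higher shoulders.

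No word of Sox factors passed the test between the strongest summits and the remaining ones. AACAAAG, sought on both strands like every word here, lay in 37 member windows (7.4%, 95% Wilson interval 5.42 to 10%), against 6.33% of the remaining windows (exact adjusted p = 0.613 over 23 words). AACAATG lay in 12 (2.4%), against 2.52% (exact adjusted p = 1), and ACAATG, which is part of AACAATG, in 35 (7%), against 6.43% (exact adjusted p = 0.779). Any of these was present in 70 member windows (14%) and in 45 of the windows 1000 bp aside (9%). At the remaining summits the shares were 12.2% and, aside, 9.12%. Of the 20 strongest, 3 held such a word. Since the windows at the summits are poorer in GC than those aside, the part of base composition in these shares was not tested.

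Among the other 20 words, 6 differed in share in these windows. Lower among the 500 strongest were GAGAG, bound by the GAGA factor and CLAMP (7.2 against 12.6%, exact adjusted p = 0.00448), and CGATA, the core of the BEAF-32 site (11 against 15.9%, 0.0207). So were the bHLH word CAGCTG (2 against 4.59%, 0.0207), GGTCACAC, known as Motif 1 of core promoters (1 window, 0.2%, against 1.75%, 0.0207), and the repeat CACACACA (0.8 against 2.59%, 0.029). TATAAA, the word of the TATA box, was more frequent, in 112 windows (22.4 against 17.3%, exact adjusted p = 0.0207). ATCGAT, the core of the DNA replication-related element (3 against 5.42%), and TAATTA of homeodomain factors (10.4 against 7.42%) did not pass (exact adjusted p = 0.0536 each). At promoter summits alone all 6 passed in the same direction, among 8 words in all, with TATAAA in 27.1% of the members and 13.9% of the remaining windows (exact adjusted p = 6.14e-07) and CGATA in 11.4 and 23% (2.58e-05). None of the 6 passed in windows of 51 or 201 bp, without replicate 1, over 250 summits, outside promoters or among windows of low GC content alone. Among windows of low GC content TATAAA stood at 26.1% of the members and 27.4% of the remaining ones, and GAGAG at 5.85 and 6.07%. In windows of 201 bp GAGAG was in 27.2% of the members and 25.4% of the remaining windows, the other way round.

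Within 1 kb of a TSS, the strongest summits met 438 of 13945 protein-coding genes, 3.14% of all of them. They were 9.36% of the 4677 genes that had any optimal summit there. Nearest at any distance were 458 genes (3.28%). No protein-coding TSS lay within 1 kb of 174 members, while 207 members had 1 such gene and 113 had 2. A single summit at rank 165 accounts for 10 of the 438, since the annotation splits mod(mdg4), which is trans-spliced, into many precursor genes there. Of the 438 genes, 133 (30.4%) had only a CG number, against 43.7% of all protein-coding genes. The gene lists below are described by their counts beside these shares, without a test of their own.

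Of 22 regulators of the ecdysone response 3 had one of the strongest summits within 1 kb (13.6%, beside 3.14% of all genes). Some optimal summit lay there for 18 of the 22, beside 4677 of all 13945 genes. The 3 were Sox14 itself, with the reservation on its locus given above, E23, an ABC transporter that lowers the ecdysone response (rank 210), and Eip75B, an ecdysone-induced nuclear receptor (rank 363). Other members were intronic. Eip75B had 2 more, 12084 and 9366 bp upstream of the TSS that carries its promoter summit, at ranks 68 and 205. Hr4, another nuclear receptor of this cascade, had summits 9967 and 5825 bp downstream of its nearest TSS at ranks 63 and 123. The summits of vri, a bZIP factor, were both in introns. The one at rank 109 lay 4424 bp upstream of an internal TSS, and the one at rank 133 lay 4425 bp downstream of the TSS at the gene's start. E23 had a further intronic summit at rank 345.

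The cell death list had 3 of 16 genes (18.8%, beside 3.14% of all genes), and 10 with any optimal summit. The promoter of hid, an antagonist of the inhibitors of apoptosis, carried a summit 316 bp from the TSS with a signal of 859, ranked 194, 287 and 193 in replicates 1, 2 and 3. A second summit lay in intergenic sequence 5032 bp away, with a signal of 856 and ranks of 241, 181 and 259. Diap1, the inhibitor of apoptosis itself, had an intronic summit 684 bp from a TSS (rank 328). Cyt-c-d, a cytochrome c, lay 388 bp from a promoter summit (rank 233) whose nearest gene was CG31808 (154 bp). With a gene window of 500 bp the cell death count was 2, and by nearest gene at any distance it was 2. Autophagy genes had none of 23 at this strength, beside 3.14% of all genes. An optimal summit of any strength lay within 1 kb of 19 of the 23, beside 4677 of all 13945 genes. Without replicate 2 there was 1. With 1000 summits in place of 500 there were 3 autophagy genes.

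Of 22 genes of the insulin and TOR pathway 3 had a member (13.6%, beside 3.14% of all genes). Lk6, a kinase of the translation factor eIF4E, had an intronic summit with a signal of 2472 that ranked 14, 10 and 9 in replicates 1, 2 and 3. REPTOR, a factor that acts when TOR is low, stood at rank 83, and sgg, the fly GSK3 kinase, at rank 120. In the Hippo pathway 2 of 15 genes had one (13.3%), hpo (rank 40) and the cadherin ds (rank 85), and ex was the nearest gene of another at rank 436. Among the 28 JNK, ERK and p38 genes of the list 2 did (7.14%), and 6 were the nearest gene of a member at any distance, beside 3.28% of all genes. The 2 were the EGF receptor ligand spi, with summits at ranks 178 and 350, and the kinase Raf. Raf was nearest to 3 members, 2 of them intronic, 5234 and 2262 bp from its TSS at ranks 55 and 175, and the other in its 5′ UTR at rank 361. Mkk4, a MAP kinase kinase outside the list, lay 155 bp from the summit at rank 60, whose nearest gene was SLIRP2 (133 bp). The Notch pathway had 1 of 18 (5.56%), the glycosyltransferase fng. Some optimal summit lay within 1 kb of 16 of the 22 insulin and TOR genes and 14 of the 15 Hippo genes. So it did for 24 of the 28 JNK, ERK and p38 genes and 13 of the 18 Notch genes. Of all genes with such a summit 9.36% had a member.

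Among transcription and chromatin genes, Chro (rank 9) and Cp190 (rank 291) were the architectural proteins with a member within 1 kb, of 19 (10.5%, beside 3.14% of all genes). Some optimal summit lay there for 13 of the 19. Trl, which encodes the GAGA factor, had an intronic summit 1532 bp from a TSS at rank 35. Of Polycomb and Trithorax group genes 2 of 28 had a member (7.14%). Some optimal summit lay within 1 kb of 19 of the 28, and of all genes with such a summit 9.36% had a member. ph-p had 2 promoter summits at ranks 31 and 198, and Psc, another subunit of Polycomb repressive complex 1, had a promoter summit at rank 154 that ranked 682, 65 and 128 in replicates 1, 2 and 3. Of the remodelling list 2 of 22 had a member (9.09%), and 9 of the 22 had some optimal summit within 1 kb. The 2 were Ino80 (rank 392) and brm (rank 451), whose replicate ranks were 192, 1366 and 516. The remodelling count was 1 without replicate 1 and 1 without replicate 3. None of the 24 genes chosen for the general transcription and Mediator list had one, beside 3.14% of all genes. Others of that machinery outside the list, picked after their values were seen, lay within 1 kb of a member. These were Ssl1 of TFIIH (rank 9), Taf12 (51 bp, rank 214) and MED27 (152 bp, rank 488), none of them the nearest gene of its summit. HmgZ, an HMG box protein of chromatin, had an intronic summit at rank 46.

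Of splicing and RNA-binding proteins 6 of 33 had a member (18.2%, beside 3.14% of all genes). It was the largest count of the 37 lists, though cell death had the larger share (18.8%). Some optimal summit lay within 1 kb of 25 of the 33, beside 4677 of all 13945 genes. The promoter of larp, which encodes an mRNA-binding protein, ranked 9, 5 and 8 in replicates 1, 2 and 3 with a signal of 2709. mub (rank 73), Rox8, elav, an RNA-binding protein of neurons (rank 226), pAbp, the poly(A)-binding protein (rank 251), and brat, a translational repressor (rank 337), followed. The translational repressor pum was the nearest protein-coding gene of an intronic summit at rank 50. Of 73 mitochondrial ribosomal proteins 5 had a member (6.85%), and 38 of the 73 had some optimal summit within 1 kb. The 5 were mRpS23, mRpS10, mRpL41 (138 bp, rank 27), mRpL23 (rank 58) and mRpL24 (rank 348). Only mRpL41 and mRpL23 were also the nearest gene of their summit. Of 93 cytoplasmic ribosomal proteins 2 had a member, RpS19b and RpL7 (2.15%, beside 3.14% of all genes), and 71 of the 93 had some optimal summit within 1 kb. Only RpL7 was also the nearest gene of its summit.

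Oxidative phosphorylation had 3 of 77 (3.9%, beside 3.14% of all genes), the complex I subunits ND-15, ND-ASHI and ND-MWFE. Only ND-ASHI was also the nearest gene of its summit. Actin and myosin had 3 of 26 (11.5%), the small GTPase Mtl, Act5C and jar, the fly myosin VI. Protein folding had 2 of 20 (10%), the small heat shock genes Hsp27 (rank 36) and Hsp26 (rank 468). Cell cycle had 2 of 22 (9.09%), pnut and stg, and the vacuolar ATPase 2 of 33 (6.06%), Vha100-2 and Vha14-1. Neither vacuolar ATPase gene was the nearest gene of its summit, and nor were stg and Mtl. Without replicate 1, and without replicate 3, the vacuolar ATPase count was 1, and without replicate 2 the protein folding count was 1. The translation factor eIF6 (rank 34), the tRNA synthetase SerRS and Lpin, a phosphatidate phosphatase of fat synthesis (rank 88), were the single genes of their lists. These lists held 20, 18 and 16 genes, and without replicate 1 the synthetase count was 0. eIF2Bbeta, a translation factor subunit outside the list, lay 678 bp from the summit at rank 5, whose nearest gene was Ugalt. No gene of the proteasome (48), cuticle protein (124), chemoreceptor (179), muscle structure (14) or neuronal channel and synapse (22) lists had one, beside 3.14% of all genes. Of these, the proteasome had 20 genes with some optimal summit within 1 kb, the cuticle proteins 5 and the chemoreceptors 3. Muscle structure had 2 such genes and neuronal channels and synapse 2, so these lists had few genes that could hold a member.

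**Figure D5:**
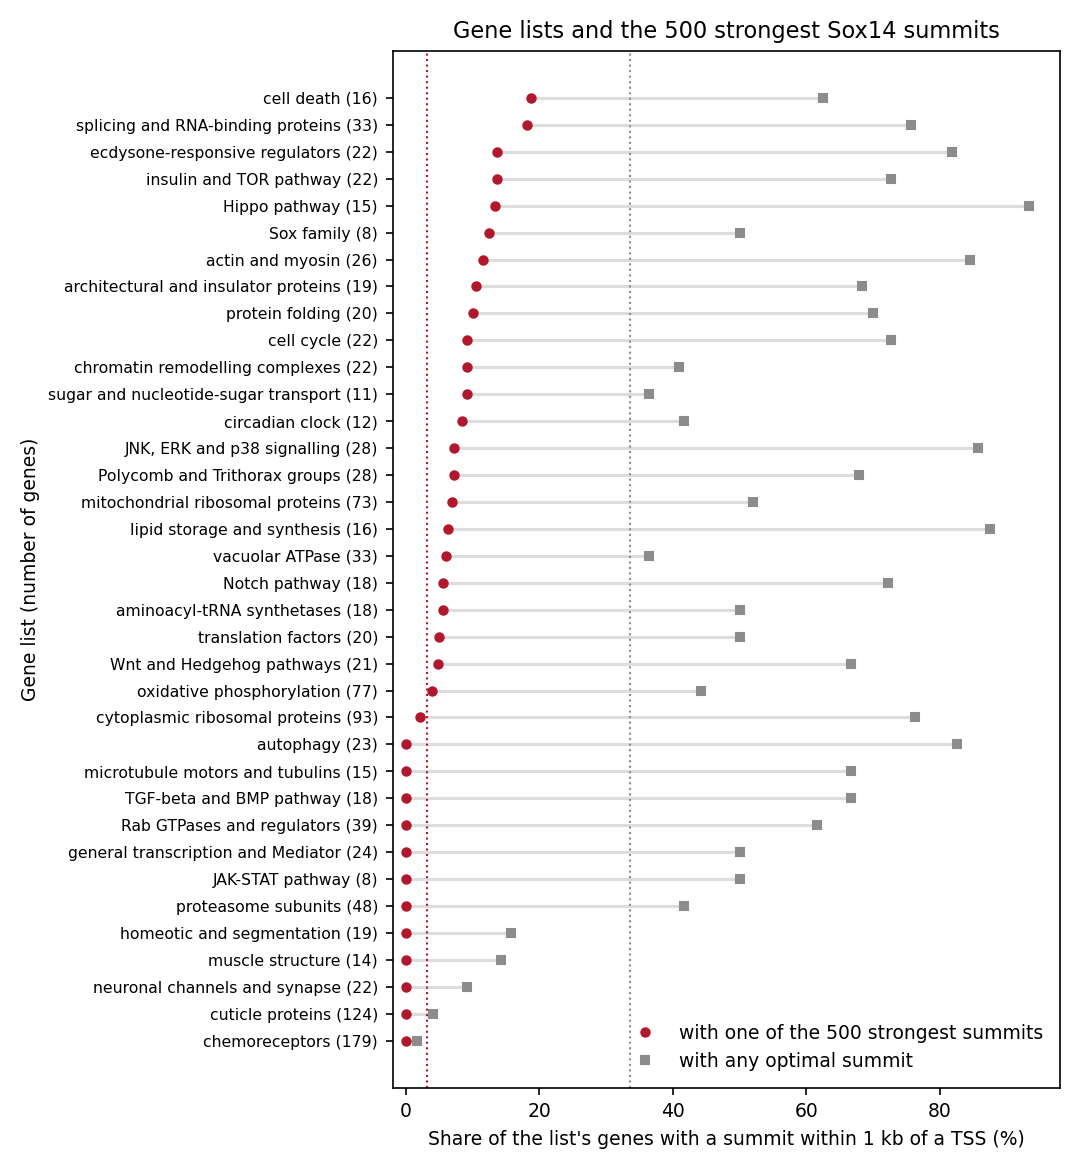
Share of each list's protein-coding genes with one of the 500 strongest summits (circles) and with any optimal summit (squares) within 1 kb of a TSS (%). The antimicrobial peptide list, with no optimal summit, is not drawn, and the number of genes stands beside each name. Dotted lines mark the shares over all protein-coding genes (3.14% for circles, 4677 of 13945 genes for squares). Circles reach 18.8% for cell death and 18.2% for RNA-binding proteins, and autophagy, at 0%, has its square at 82.6%.

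Away from TSSs of any kind, 98 of the members (19.6%) lay more than 2 kb off, against 3131 of 8816 (35.5%). Of the 98, 75 were in introns and 21 in intergenic sequence. The strongest were the intergenic summit 11914 bp from CG13323 (rank 3), those assigned to CG31668 (3758 bp, rank 21), CG16753 (5714 bp, rank 23, inside an intron of CG32486) and CG43245 (4649 bp, rank 28), and intronic ones of Raf, CG12769, Hr4, Eip75B, Tlk and CG32264. Tlk is a kinase of chromatin assembly. More than 10 kb off lay 12 of the 500 members, against 741 of the 8816 remaining summits.

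Some strong summits that look distal when only protein-coding genes are considered lay near a TSS of a non-coding RNA gene. The nearest TSS belonged to a protein-coding gene at 259 of the 280 promoter members (92.5%), to a non-coding RNA gene at 20 (7.14%) and to a tRNA gene at 1. Among the remaining promoter summits the shares were alike, 91.9% protein-coding and 7.11% non-coding RNA. The summit at rank 12, inside the osa gene and 13941 bp from a TSS of it, lay in an exon of lncRNA:CR46035. The one at rank 303, also inside osa, lay 177 bp upstream of a TSS of the same RNA. The summits at ranks 18 and 29 flanked a TSS of lncRNA:CR44619, 456 bp upstream and 513 bp downstream of it, with replicate ranks of 29, 14 and 14 and of 41, 18 and 30. At rank 26 the summit lay 121 bp upstream of lncRNA:CR31044 and 5731 bp from eEF1gamma. The promoter summit assigned to puc, a JNK phosphatase 7635 bp away (rank 309), lay 120 bp upstream of lncRNA:CR44331.

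Most genes were nearest to a single member. Of the 458 nearest genes, 421 had 1, 32 had 2 and 5 had 3. Besides Raf and Eip75B, those with 3 were CG43389, CHES-1-like, a forkhead factor, and shep, an RNA-binding protein. The CHES-1-like members stood at ranks 326, 414 and 482, and those of shep at ranks 470, 480 and 481. The CG43389 members stood at ranks 148, 225 and 259, and the replicate 1 summit that ranked 112 was the nearest to both the first and the last of these. Within 2 kb of another member lay 37 of the 500 (7.4%).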

How the data were processed

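ChIP-seq of GFP-tagged Sox14 was analysed from the peak lists the authors deposited for build dm6: an optimal list, and a relaxed list of 30000 peaks for each of 3 replicates. Per the deposited text descriptions, peak calling by the authors used a control, which was not analysed here. Aligner, peak caller and the threshold of the optimal list: not given in the sources used here. The deposited signal is the authors' own value per peak, its scale differs between lists, and it served only to rank peaks within a list. The deposited −log10 q value is also the authors'.

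Peaks were ranked by signal, with ties by position, and the first 500 were compared with the remaining 8816. TSSs, exons and genes came from Ensembl release 115 and sequence from the RefSeq Release 6 genome, whose arm lengths fit the peaks. A promoter summit lay within 500 bp of any TSS, transposable elements left aside. Other summits took the first that held of UTR (5′ before 3′), coding exon, exon of another kind, intron and intergenic sequence. Replicate summits within 100 bp counted as found. Shares were compared by Fisher's exact test, two-sided, with p-values adjusted by Benjamini and Hochberg per family and a threshold of 0.05, in Python with scipy. Odds ratios had 0.5 added to each count only where a count was 0. The tests and the word search were tested on simulated data. Neighbouring peaks are not independent and all come from the same 3 libraries, so p-values describe these lists and not new animals, and Wilson intervals cover the counting of summits only. Members, gene lists, words and tests were chosen with earlier results of these data known. Named genes followed a fixed rule: the nearest protein-coding genes of ranks 1 to 50, the 3 best-ranked genes of each list, genes nearest to 3 or more members, the 10 best-ranked members over 2 kb from a TSS, the 5 least even in replicate rank, and the 5 on each side of the limit. Other genes that illustrate a count, and those of non-coding RNAs, were chosen after their values were seen, and not all genes of the rule are described. Alternatives covered the number of summits, the windows, the annotation, the comparison set and each replicate left out, where the 500 of best mean rank in the other 2 lists were taken. GC content, promoter position and the words at low GC content were added after seeing the data.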

Additional observations from a re-analysis of the deposited data

How the results depend on the processing

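No paired analysis was possible because the series holds 1 group. Leaving out a replicate kept 457, 460 and 463 of the 500 members without replicates 1, 2 and 3. Only the ranking left the replicate out, since the summits were still those of the optimal list, which pools all 3 replicates. Part of this overlap is therefore given by design. The higher promoter share, the low GC content and the position 100 to 300 bp upstream kept direction and call under every alternative run for them. The cause of the changes below was not tested. The lower intron share, a log2 odds ratio of -0.41, was -0.20 over 1000 summits and -0.12 with a promoter window of 250 bp, neither past the threshold. Among summits outside promoters, 220 members and 5019 remaining ones, the intron value turned to 0.41. The intergenic value, -0.84 with all summits, was -0.48 there, and neither passed the threshold. The share taken by promoters is left out there, and the sets are smaller. Over the replicates left out the intron value ran from -0.48 to -0.28, and the intron share did not pass without replicate 3. The intergenic share kept direction and call under every other alternative run for it. The share with TSSs on both strands, a log2 odds ratio of 0.57, ran from 0.33 to 0.66 over the replicates left out and did not pass without replicate 1. The share with another optimal summit nearby, 0.25 and not past the threshold, passed at 0.36 over 1000 summits, at 0.41 against remaining summits found in all 3 replicates and at 0.61 within 5 kb. It ran from 0.12 to 0.32 over the replicates left out and passed without replicate 1.

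The number of words with a different share was 6, and it was 0 over 250 summits, 0 in windows of 51 bp, 0 in windows of 201 bp, 0 outside promoters and 0 among windows of low GC content, and ran from 0 to 8 over the replicates left out. It was 0 without replicate 1. The direction turned for GAGAG in windows of 201 bp (log2 odds ratio 0.13), for TATAAA outside promoters (-0.34) and at low GC content (-0.10), and for CACACACA at low GC content (0.23). The 438 genes within 1 kb were 989 within 5 kb, 243 with 250 summits and 787 with 1000, changes that follow from the window and the number of summits. Because read depth is unknown, no interval covers sequencing error.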
